A study of Mus musculus with 17 samples.

Results

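Tubulin isotypes are the alpha and beta tubulins that pair into the subunits of microtubules, and 10 of them were followed in mouse hippocampus with and without FOXO transcription factors: Tuba1a, Tuba1b, Tuba1c, Tuba3b, Tuba4a, Tubb2a, Tubb2b, Tubb3, Tubb4a and Tubb5. The members were chosen by name with results of these arrays known, and the rule takes every probe set that the platform annotation gives 1 of these symbols alone. It also names the levels to be described, KO against WT and granule against CA field, so those contrasts are given as values without a p. The rule found 12 probe sets for 8 of the 10 genes, among 18194 genes with a probe set of 1 symbol. Tuba1b and Tuba1c were read only by probe sets that carry a second symbol, and no value is given for them. Such shared probe sets also exist for Tuba1a, Tuba3b and Tubb2b, and 7 of them were left out.

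RNA came from mouse brain, and by the study's methods from laser-captured dentate gyrus, the field of granule neurons. KO samples carry the genotype FOXO 1/3/4 KO, made with floxed Foxo alleles and hGFAP-cre, which deletes in neurons and in glia from their common progenitors, on a mixed FVB and B6 background. WT samples are the wild-type counterparts. There were 8 KO and 7 WT samples, each with a mark read here as an animal, and a further KO and WT sample, of the marks 433 and 437, bear the unexplained addition CA13. The labels give no age or sex and name only brain as tissue, and nothing says outright that samples are separate animals, so the errors describe how these samples scatter, part of which may be technical. A further number in the titles takes 1 of 2 values and is called the array series here. Of the 15 unmarked samples, 11 (6 KO and 5 WT) belong to the larger series and 4 (2 KO and 2 WT) to the smaller.

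Array signals were used as log2(signal + 32) after quantile normalization of the 15 unmarked arrays, so differences of dim probe sets are understated. The normalization also narrowed the brightest probe sets, where small differences may be understated too. For the bright Tuba4a probe set the deposited WT signals ran from 29300 to 63820, and the WT levels only from 15.12 to 15.29. A level of one probe set cannot be set against that of another, and no order of abundance between isotypes is given. In tissue, fewer cells of a type and less RNA per cell cannot be told apart. Foxo1 mRNA checked the labels, at 7.33 to 9.44 in KO and 12.33 to 13.94 in WT (log2 difference -5.08, limma adjusted p = 1.16e-07). The library labelled 433, a KO, stood apart: the mean of 12 granule neuron markers was 8.02 there and 7.95 in the CA13-marked 437, against 11.08 to 11.38 in the other 15 libraries, and the mean of 13 CA pyramidal markers was 10.62 in both against 7.61 to 8.44. The CA13-marked 433 had granule markers at 11.37, although it bears the CA13 mark. The library labelled 433 and the CA13-marked 437 are called CA-marker-high below, and the part of cell content in the values of these libraries was not tested. The log2 ratio of 3' to 5' Gapdh signal, a measure of RNA integrity, ran from 5.04 to 6.41 in KO samples and from 5.11 to 6.23 in the WT samples. The 3' signal was thus far above the 5' signal in every sample. Whether the place of a probe set in its transcript shaped its value was not tested.

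A microtubule is a hollow polymer of alpha and beta tubulin dimers that carries transport along axons and dendrites and pulls chromosomes apart in dividing cells. Vertebrates make each subunit from several genes whose products differ mostly near the carboxy terminus, the tail that enzymes modify by glutamylation and that microtubule-associated proteins bind. In brain, Tuba1a and Tubb2b are best known from developing neurons, Tubb3 is a standard neuronal marker, Tubb4a is prominent in oligodendrocytes as well as neurons, Tuba4a is a major form of mature neurons, and Tubb5 is also made by dividing cells. Tuba3b is best known from testis.

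Stretches upstream of the start are shown for 3 members. Tuba3b had the largest genotype difference, the genotype difference of Tubb3 turned between the array series, and Tubb2a is the member with the letters TATAAA. They come from RefSeq on GRCm38.p6, and each holds the last 100 bases before the annotated start, 5' to 3' on the gene's strand. Capitals mark CCAAT or its reverse complement ATTGG, and TATAAA. Variants of these letters were not searched.
Tuba3b (chr6:145615863-145615962, plus strand): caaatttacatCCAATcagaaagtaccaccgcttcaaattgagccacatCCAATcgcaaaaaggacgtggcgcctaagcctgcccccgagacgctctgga
Tubb3 (chr8:123411453-123411552, plus strand): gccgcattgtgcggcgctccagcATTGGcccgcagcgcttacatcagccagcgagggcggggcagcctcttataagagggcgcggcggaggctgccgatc
Tubb2a (chr13:34078009-34078108, minus strand): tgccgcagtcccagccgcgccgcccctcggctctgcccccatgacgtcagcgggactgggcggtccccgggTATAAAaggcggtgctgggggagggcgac
Of the 10 members, 9 had an entry (Tubb2b had none), and 250 bases before each start were searched on both strands. For Tuba4a the start used lies inside the gene span given below, and the stretch searched was chr1:75219295-75219544. The FOXO recognition letters GTAAACA stood in 0 of the 9, against 3.17% of 32851 promoters of the same length. CCAAT stood in 5 of the 9 (Tuba1a, Tuba1c, Tuba3b, Tubb3 and Tubb5) against 33.8%, and TATAAA in 1 of the 9 against 12.4%. A match is a description of letters and not of a bound site.

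Across the 12 member probe sets, 0 had KO and WT samples that did not overlap, against 0.0289% of all 45037 probe sets, and 0 passed limma's adjusted p of 0.05, against 0.0133%, the 6 probe sets of Foxo1 and Prm1. Since the contrast was part of the choice of members, nothing is read from these counts. The median log2 difference of the 8 members, KO minus WT by the brightest probe set, was 0.045, beside 0.002 over all probe sets. Of the members, 6 had a positive and 2 a negative value, while 47.6% of all genes were negative.

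**Figure D1:**
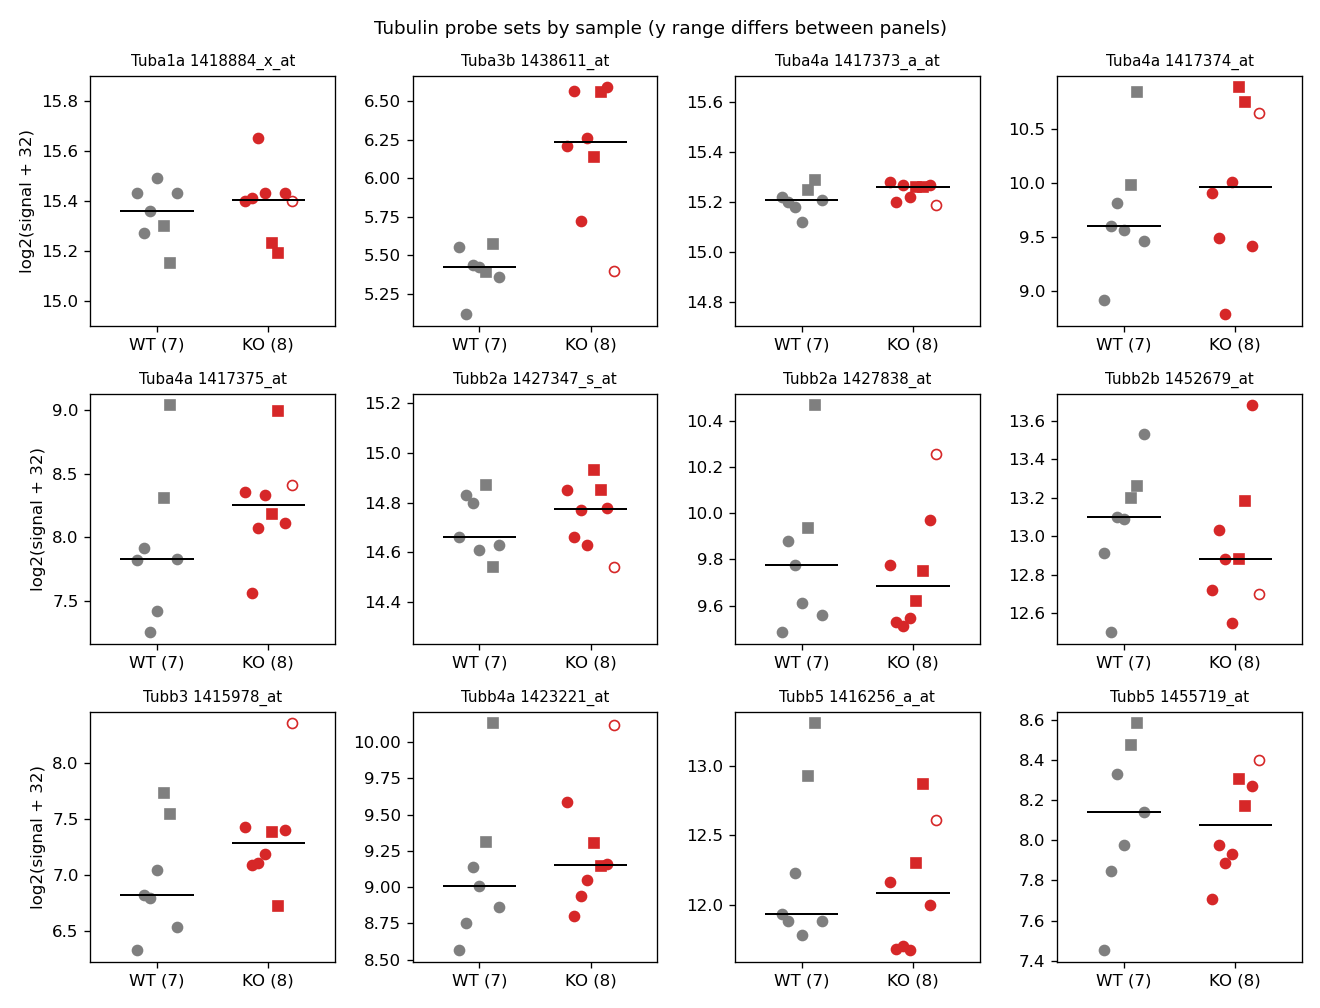
Quantile normalized log2(signal + 32) of 12 tubulin probe sets in 7 WT (grey) and 8 KO (red) samples, with each point a sample, squares for the smaller array series, the open circle for the library labelled 433 and the line the group median; the y range differs between panels. The groups overlap in every panel, and in that of Tuba3b the open circle is the only KO point at the WT level.

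Among the alpha tubulins, Tuba1a is the form that neurons use to build their microtubules during development of the brain. Its gene (GRCm38.p6, chromosome 15, 98949847 to 98953501) has 1 probe set. Its level ran from 15.15 to 15.49 in WT (median 15.36) and from 15.19 to 15.65 in KO (median 15.40). The ranges overlapped, with the WT sample 392 below every KO sample and the KO sample 384 above every WT sample, and the log2 difference was 0.05 (SE 0.087, 95% interval -0.14 to 0.23). The probe set is of a type, marked x, whose probes can also pair with related transcripts, so its value may include other alpha tubulins.

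Tuba4a (chromosome 1, 75214972 to 75221261) was read by 3 probe sets. The brightest ran from 15.12 to 15.29 in WT (median 15.21) and from 15.19 to 15.28 in KO (median 15.26), with a log2 difference of 0.03 (SE 0.069, 95% interval -0.11 to 0.18). The intervals of the dimmer pair were wider, and the samples far more scattered. The middle probe set ran from 8.91 to 10.85 in WT (median 9.60) and from 8.78 to 10.89 in KO (median 9.96), and its log2 difference was 0.25 (SE 0.313, interval -0.41 to 0.90). The dimmest ran from 7.25 to 9.04 in WT (median 7.83) and from 7.56 to 8.995 in KO (median 8.26), and its log2 difference was 0.31 (SE 0.246, interval -0.20 to 0.83). With the deposited scaling alone the brightest probe set had -0.06 and the dimmer pair 0.27 and 0.32, so the sign of the brightest depends on the quantile normalization. Without the library labelled 433 the 3 probe sets had 0.04, 0.15 and 0.29, from brightest to dimmest. Within the smaller array series the dimmest had -0.09.

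Tuba3b (chromosome 6, 145615963 to 145621477) had the largest genotype difference of the members, on a dim probe set. Its level ran from 5.12 to 5.58 in WT (median 5.42) and from 5.39 to 6.59 in KO (median 6.24). The KO samples 212, 903, 384, 386, 391, 390 and MS15 stood at 6.21, 6.57, 5.72, 6.26, 6.14, 6.56 and 6.59, all above the highest WT sample, and the library labelled 433 stood at 5.39, inside the WT range. The log2 difference was 0.77 (SE 0.171, 95% interval 0.41 to 1.13), a 1.71-fold ratio of signal + 32, and 0.88 (interval 0.58 to 1.19) without the library labelled 433. Exchanging it for the CA13-marked 433 gave 0.85. The deposited signals were low, 2.70 to 16.5 in WT and 11.2 to 77.3 in KO, so the size depends on the number added before log2, and the difference was 1.86 with 1 and 0.30 with a number 4 times that used here. The differences were 0.75 within the larger array series, with the library labelled 433 included, and 0.86 within the smaller. The probe sets that Tuba3b shares with Tuba3a were not used, and whether Tuba3a adds to the signal was not tested.

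Among the beta tubulins, Tubb2a is a major neuronal beta form (chromosome 13, 34074278 to 34078008). Its brightest probe set ran from 14.54 to 14.87 in WT (median 14.66) and from 14.54 to 14.93 in KO (median 14.77), with a log2 difference of 0.05 (SE 0.088, interval -0.14 to 0.23). This probe set is of the type marked s, shared between transcripts. The dimmer one ran from 9.48 to 10.47 in WT (median 9.78) and from 9.51 to 10.26 in KO (median 9.68), and its log2 difference was -0.07 (SE 0.158, interval -0.40 to 0.26). Without the library labelled 433 the brightest had 0.07 and the dimmer -0.15. The sign of each turned under an alternative, to -0.02 for the brightest with the deposited scaling alone and to 0.04 for the dimmer without the WT sample 392.

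Tubb2b, its neighbour on chromosome 13 (34127008 to 34130354), is known for migration of young neurons. It ran from 12.50 to 13.53 in WT (median 13.10) and from 12.55 to 13.68 in KO (median 12.88). Both ranges cover nearly the same span, and the log2 difference was -0.13 (SE 0.166, interval -0.48 to 0.22).

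Tubb3 (chromosome 8, 123411553 to 123422015), whose product marks neurons, ran from 6.33 to 7.73 in WT (median 6.82) and from 6.72 to 8.35 in KO (median 7.28). The highest KO value, 8.35, was that of the library labelled 433, and the next KO sample was at 7.42. The log2 difference was 0.36 (SE 0.248, interval -0.16 to 0.89), and 0.22 without the library labelled 433. In the larger array series the 6 KO samples all lay above the 5 WT samples, at 7.09 to 8.35 against 6.33 to 7.04. In the smaller series the order turned, with the KO samples at 7.38 and 6.72 below the WT samples at 7.73 and 7.54. The differences were 0.72, with the library labelled 433 included, and -0.59. Such a complete turn between the series was found in 0.0711% of all probe sets and in 1 of the 12 here. In the larger series alone, 0.395% of all probe sets and 1 of the 12 did not overlap between genotypes. Since the genotype contrast was part of the choice of members, nothing is read from these counts. In the smaller series, with 2 samples a genotype, Tubb3 was not alone. KO also lay below WT there for Tubb2b, Tubb4a, the dimmer Tubb2a and both Tubb5 probe sets, and above it for Tuba3b. The dimmer Tubb2a probe set had 0.10 in the larger series and -0.52 in the smaller, and the brighter Tubb5 one 0.03 and -0.54. Here too the values of the larger series include the library labelled 433. The share of all probe sets was not taken in the smaller series, so nothing is read from the order of its samples. limma's interaction of genotype and array series passed an adjusted p of 0.05 for 0 of all probe sets, with 2178 at an unadjusted p under 0.05.

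Tubb4a (chromosome 17, 57080061 to 57087600) ran from 8.57 to 10.13 in WT (median 9.01) and from 8.80 to 10.12 in KO (median 9.16). The WT sample 392 at 10.13 and the library labelled 433 at 10.12 were alone above 10, and the next sample was the KO sample 212 at 9.59. The log2 difference was 0.15 (SE 0.226, interval -0.32 to 0.63). It was 0.41 in the larger array series, with the library labelled 433 included, and -0.50 in the smaller. Over both series it was 0.03 without the library labelled 433 and 0.32 without the WT sample 392. Oligodendrocyte markers, of which 5 of 6 were measured, averaged between 9.61 and 10.82 in the WT samples and between 10.25 and 11.20 in KO without the library labelled 433, a difference of 0.40, with none at 0, and their part in the Tubb4a values was not tested.

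Tubb5 (chromosome 17, 35833920 to 35838301) had 2 probe sets. The brighter ran from 11.78 to 13.31 in WT (median 11.93) and from 11.67 to 12.87 in KO (median 12.08), with a log2 difference of -0.15 (SE 0.244, interval -0.67 to 0.36). The dimmer ran from 7.45 to 8.58 in WT (median 8.14) and from 7.71 to 8.401 in KO (median 8.07), with -0.03 (SE 0.178, interval -0.41 to 0.34). The medians and the means of the brighter probe set therefore had opposite signs between genotypes, and without the WT sample 392 its log2 difference was 0.02. Without the library labelled 433 the brighter had -0.22 and the dimmer -0.08.

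**Figure D2:**
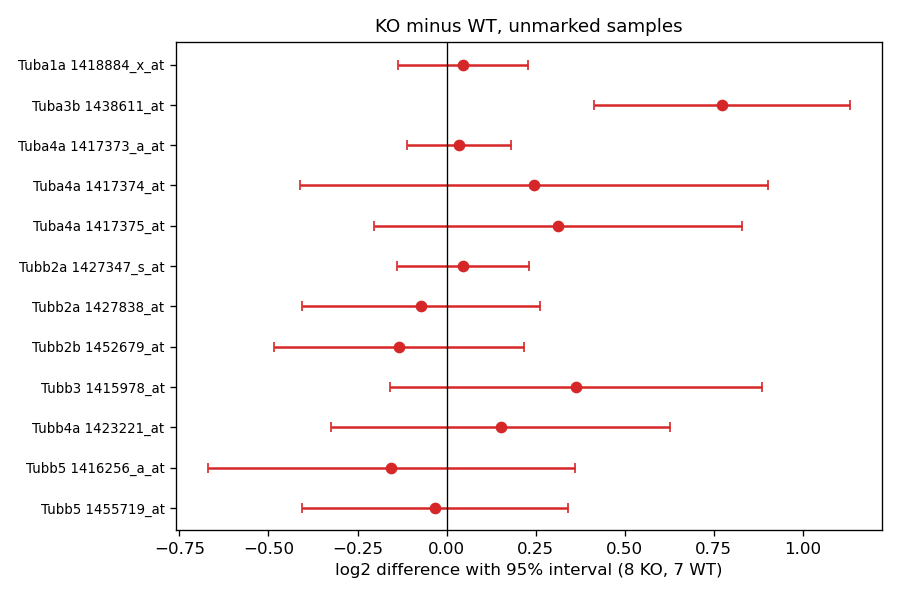
Log2 difference, KO minus WT, of each tubulin probe set in the unmarked samples (8 KO, 7 WT), with points the limma estimate and bars the 95% interval. The largest estimate is that of Tuba3b, at 0.77 (interval 0.41 to 1.13), on a dim probe set. Since the contrast was part of the choice of members, nothing is read from whether an interval includes 0.

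The array series, which the choice of members did not use, differed in mean level on some probe sets, with overlapping ranges. With genotype in the model, the brighter Tubb5 probe set was higher on average in the 4 samples of the smaller series than in the 11 of the larger. So was the dimmer pair of Tuba4a probe sets. For the brighter Tubb5 probe set the 4 samples stood at 12.30, 12.87, 12.93 and 13.31, and the 11 others at 11.67 to 12.61. Its mean was 12.85 ± 0.42 (SD, n = 4) against 11.96 ± 0.29 (SD, n = 11), and the log2 difference was 0.89 (SE 0.177, 95% interval 0.52 to 1.26, limma adjusted p = 0.00547). The library labelled 433 was the highest of the 11, and without it the difference was 0.95 (adjusted p = 0.000902). RNA integrity moved with the series: the log2 ratio of 3' to 5' Gapdh signal was 5.11 to 5.37 in the smaller series, and 9 of the 11 samples of the larger lay above that range, up to 6.41. With this ratio as a covariate the Tubb5 difference was 1.00 (limma adjusted p = 0.02).

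Tuba4a by its middle probe set differed by 1.03 (SE 0.257, limma adjusted p = 0.0189), with 9.98 to 10.89 in the smaller series and 8.78 to 10.65 in the larger, so the groups overlapped. By its dimmest probe set it differed by 0.73 (SE 0.217, limma adjusted p = 0.0422). The bright Tuba4a probe set, whose range the normalization narrowed, differed by 0.05 (interval -0.10 to 0.20), and by 0.125 with the deposited scaling alone. Thus 3 of the 12 member probe sets passed as higher and 0 as lower in the smaller series, against 4.45% and 5.37% of all probe sets. The middle Tuba4a probe set passed with RNA integrity as a covariate (limma adjusted p = 0.0362) and missed the threshold without the KO sample 391 (0.98, adjusted p = 0.0519), the KO sample 390 (1.03, adjusted p = 0.0643) or the WT sample 392 (0.90, adjusted p = 0.103). The call of the dimmest was lost in 13 of 21 alternatives: with the deposited scaling alone (limma adjusted p = 0.0541), with RNA integrity as a covariate (adjusted p = 0.142), and without the KO sample 903, 384, 390 or MS15 or any 1 of the WT samples (adjusted p from 0.0524 to 0.223). Without the WT sample 392 or the KO sample 390, only the brighter Tubb5 probe set of the 12 passed.

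For the remaining member probe sets the test of the array series missed the threshold. The dimmer Tubb5 probe set had 0.39 (interval 0.02 to 0.76, limma adjusted p = 0.186). Tubb4a had 0.39 (interval -0.11 to 0.89), Tubb3 0.27 (interval -0.32 to 0.85) and Tuba1a -0.21 (interval -0.38 to -0.03, limma adjusted p = 0.129). Of the newborn neuron markers all 7 were measured, and 1, Igfbpl1, passed as higher in the smaller series (log2 difference 1.5, limma adjusted p = 0.000352). Of the 6 that did not pass, 5 had a positive value and Neurod1 had -0.07. Dcx, which encodes the microtubule-binding protein doublecortin of young neurons, had 0.93 (limma adjusted p = 0.0599). The mean of the 7 markers was 8.73 to 9.40 in the smaller series and 7.66 to 8.93 in the larger, the library labelled 433 lowest. Their part in the Tubb5 values was not tested, and the labels and methods do not say what the array series stands for.

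**Figure D3:**
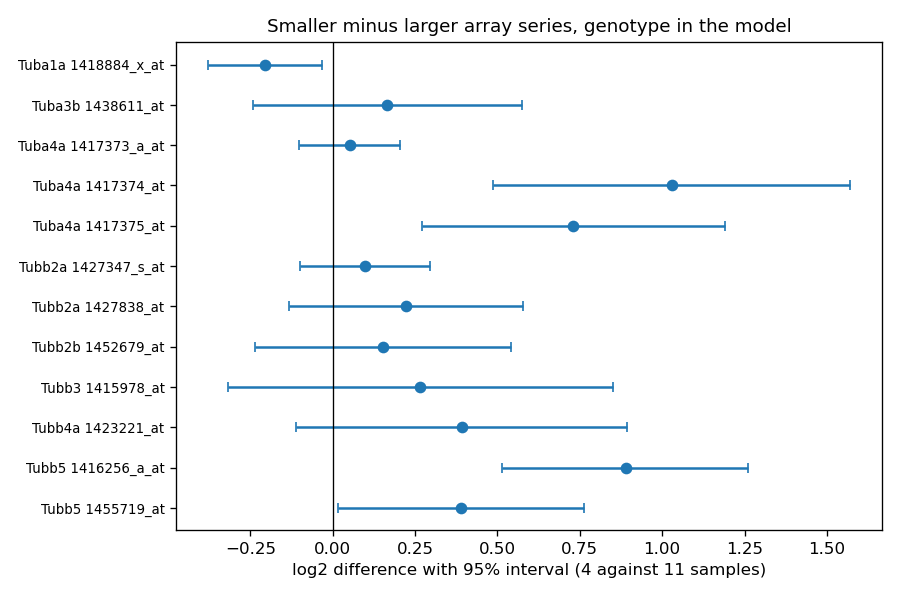
Log2 difference, the smaller (4 samples) minus the larger (11 samples) array series, of each tubulin probe set from a limma model with genotype, with bars the 95% interval. The brighter Tubb5 probe set, at 0.89, and the dimmer pair of Tuba4a probe sets, at 1.03 and 0.73, have intervals above 0 and passed the adjusted test.

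A few samples stood at the ends of many ranges. The WT sample 392, of the smaller series, was the highest WT sample on 8 of the 12 probe sets and the lowest on 2. The 2 were Tuba1a, at 15.15, and the bright Tubb2a probe set, at 14.54. In the deposited signals the highest WT value of Tuba1a, 57610, belonged to that same sample, so its place there depends on the quantile normalization. Among KO samples the library labelled 433 was highest on 4 probe sets and lowest on 3.

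The granule and CA fields were compared through the paired libraries of the marks 433 and 437, by what their markers showed and with no test. All 17 arrays were normalized together for these values. In the library labelled 433 and in the CA13-marked 437, both high in CA markers, 0 of the 12 member probe sets lay below all the other 15 libraries, against 4.04% of all probe sets, and 0 lay above them, against 5.22%.

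Tubb3 had the largest differences of the beta tubulins within the pairs. It was at 8.36 in the library labelled 433 and 7.31 in the CA13-marked 433, and at 7.52 in the CA13-marked 437 and 6.81 in its unmarked partner, while the other 15 libraries spanned 6.34 to 7.74. The CA-marker-high library was thus the higher of each pair, by 1.05 and 0.71 on the log2 scale. Tubb4a was at 10.11 against 9.68 for mark 433 and at 9.77 against 9.14 for mark 437, with the other 15 at 8.57 to 10.13. The dimmer Tubb2a probe set was at 10.25 against 10.04 and at 10.22 against 9.77, with the other 15 at 9.48 to 10.46. For both, the WT sample 392 was the only one of the other 15 libraries above either CA-marker-high library. Tubb2b went the other way, at 12.70 against 13.07 and at 12.70 against 13.11, within 12.50 to 13.69 in the other 15.

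The dimmest Tuba4a probe set differed by 0.20 and 1.14 in the pairs, and the middle one by 0.42 and 0.32. Tuba3b was lower in the CA-marker-high library of each pair, by -0.55 and -0.19, near the floor of the array. Tuba1a differed by 0.04 and 0.00, and the bright probe sets of Tuba4a and Tubb2a by at most 0.07 in size. These are the brightest probe sets here, whose differences the normalization may understate. Of the 12 probe sets, 10 had the same sign in both pairs, 7 of them higher and 3 lower in the CA-marker-high library, against 61.2% of all probe sets with the same sign. The 2 without were Tuba1a and the dimmer Tubb5 probe set, at -0.32 and 0.15. The rule names this contrast, and Tuba4a, Tubb2a and Tubb5 enter the count with several probe sets. The bright ones of Tuba4a and Tubb2a differ by at most 0.07, so nothing is read from the count. Over all probe sets the 5th and 95th percentiles of the difference within a pair were -1.07 and 1.08 for mark 433 and -1.11 and 1.11 for mark 437.

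**Figure D4:**
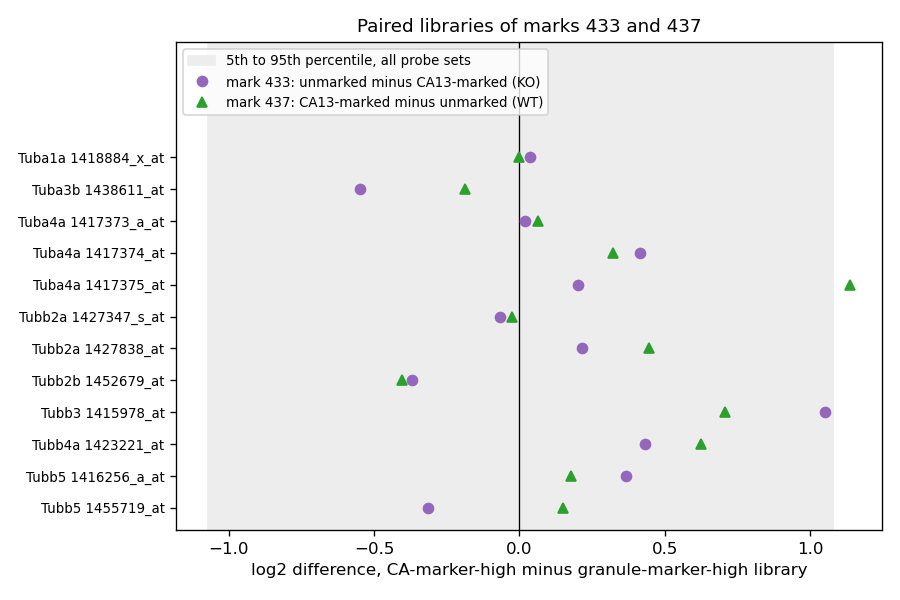
Log2 difference between the paired libraries of each mark for 12 tubulin probe sets, taken as the library high in CA markers minus the library high in granule markers, with circles for mark 433 (KO) and triangles for mark 437 (WT). The grey band spans the 5th to 95th percentile of all probe sets, and only the Tuba4a probe set at 1.14 in mark 437 lies past it.

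Other genes of tubulin biology, in 7 lists of 111 genes, gave no called difference between the genotypes. Of the 102 measured by a probe set of their own, 0 passed limma's adjusted p of 0.05, while an unadjusted p under 0.05 was reached by 2 with a higher and 0 with a lower level in KO, a threshold that 3.05% of all genes met. Every adjusted p in the lists was 1.00.

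Of 8 further tubulins, 0 passed at either threshold. Tube1, the epsilon tubulin of centrioles, had a log2 difference of -0.25 (SE 0.132), and the gamma tubulins Tubg1 and Tubg2, which seed microtubules, had 0.43 (SE 0.280) and 0.31 (SE 0.178). Tubd1, delta tubulin, had 0.33 (SE 0.283). The median of the list was 0.10. Other probe sets of Tube1 and Tubg2 had the opposite sign, as did those of Tbccd1, Map1b, Dclk2, Clasp2 and Clip1 among the genes named next.

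The machinery that folds tubulin gave a median of -0.05 over 14 genes, with 0 past either threshold. Pfdn2, a subunit of the prefoldin that hands new tubulin to the chaperonin, had 0.47 (SE 0.256), and Tbcc, the cofactor that completes the dimer, had 0.18 (SE 0.129). Arl2, a GTPase that works with these cofactors, had -0.18 (SE 0.138), and Tbccd1, related to cofactor C, had -0.27 (SE 0.181).

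The gamma-tubulin ring complex and its recruiters, 17 genes, had a median of 0.10 and 0 past either threshold. Tubgcp4, a subunit of the ring, had -0.20 (SE 0.124), with its other probe sets up to 0.51. The augmin subunits Haus4 and Haus6, which start microtubules on the sides of others, had 0.32 (SE 0.215) and -0.19 (SE 0.171). Nedd1, which recruits the ring, had 0.35 (SE 0.269).

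Of 21 measured enzymes that modify tubulin, 0 passed at either threshold, with a median of 0.04. Ttll3, a glycylase, had -0.32 (SE 0.193), the polyglutamylases Ttll11 and Ttll6 had 0.18 (SE 0.140) and -0.35 (SE 0.268), and Ttll10, a glycylase, had 0.33 (SE 0.267). For all but Ttll6 another probe set had the opposite sign.

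The structural microtubule-associated proteins and stathmins, 18 genes, had a median of 0.00 and 1 gene at an unadjusted p under 0.05. That was Mapt, which encodes tau, the axonal binder of microtubules, at 11.02 ± 0.23 (SD, n = 8) in KO and 10.56 ± 0.60 (SD, n = 7) in WT, with a log2 difference of 0.46 (SE 0.210, interval 0.02 to 0.90, limma unadjusted p = 0.0416). Its other probe sets ran from -0.05 to 0.66. Map1b, Map4 and Dclk2 had 0.28 (SE 0.173), 0.25 (SE 0.175) and 0.32 (SE 0.271), and Map4 had 0.10 without the library labelled 433.

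Proteins of the plus and minus ends, 15 genes, had a median of 0.07 and 0 past either threshold. Clasp1 and Clasp2, which stabilise growing ends, had 0.18 (SE 0.113) and -0.28 (SE 0.210), Clip1 0.13 (SE 0.117), and Camsap3, which caps minus ends, 0.20 (SE 0.203). Among 9 severing and depolymerising enzymes, with a median of 0.09, Fignl1, of the fidgetin family, had 0.60 (SE 0.233, interval 0.11 to 1.09, limma unadjusted p = 0.0198) on a dim probe set, at 6.38 ± 0.55 (SD, n = 8) in KO and 5.78 ± 0.37 (SD, n = 7) in WT. The katanin-like genes Katnal2 and Katnal1 had 0.30 (SE 0.237) and 0.12 (SE 0.192), and the depolymerising kinesin Kif2b had 0.07 (SE 0.080).

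Of these 102 genes, 10 lay above and 5 below the other 15 libraries in both CA-marker-high libraries, beside 6.87% and 5.27% of all genes by their brightest probe set, as a description with no test. Stmn2, a stathmin that binds free tubulin in growing axons, was at 9.92 in the library labelled 433 and 10.38 in the CA13-marked 437, against 7.46 to 8.90. Map4 was at 12.60 and 12.74, against 10.81 to 11.54. Agbl4, which trims glutamates from tubulin tails, was at 9.12 and 8.85, against 6.50 to 7.87. Dclk1, a doublecortin-like kinase, was below, at 11.39 and 11.36 against 11.56 to 12.61. These 4 examples were picked with their values in view.

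The gene whose levels followed each member most closely over the 14 unmarked samples other than the library labelled 433, of 18171 genes, is given as a description. Pearson's r was 0.96 for Tubb5 with Atox1, 0.93 for Tuba1a with Dzank1, 0.92 for Tubb4a with Ddx54 and 0.88 for Tuba4a with Rasl12. It was 0.87 for Tubb2a with Fxr2, 0.86 for Tubb2b with Zfyve26, 0.84 for Tubb3 with Tmem268 and 0.83 for Tuba3b with Spp2. The samples share their array series and normalization, and each partner is the highest of many genes.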

How the data were processed

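Signal intensities of 17 arrays, 1 value a probe set, were deposited by the authors on a linear scale. MAS5 is named in the submitters' notes, RMA followed by SAM in the methods. Every array had the same 2%-trimmed mean of 500. Of 45101 probe sets, 64 were controls and left out, and log2(signal + 32) was quantile normalized over the 15 unmarked arrays. The genotype model used limma 3.58.1 (R 4.3.3; eBayes, intensity trend) on 45037 probe sets, adjusted by Benjamini-Hochberg. SAM was not run. Gene names came from the platform annotation (34945 probe sets with 1 symbol, 932 with several, 9160 with none) and coordinates from GRCm38.p6. The number of arrays limits the precision.

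The members and lists were chosen with earlier results of these data known. Named were all members, up to 4 genes per list with the smallest p, and 1 most alike gene per member. The array series term was added after the data were seen. The limma fit of KO against WT was tested on simulated data, and the other steps were not. Alternatives covered scaling, pseudocount, dim probe sets, samples, array series, RNA quality, variance trend and the methods' t-test. Sequences of probes and proteins were not used here.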

Additional observations from a re-analysis of the deposited data

Results flagged for a closer look

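Tubb3 was at 8.35 in the library labelled 433, far from the next KO sample at 7.42. Its genotype difference also turned between the array series, with a value in the smaller series minus that in the larger of -1.309 on the log2 scale, where every KO sample lay above every WT sample in one and below in the other. That difference includes the library labelled 433 and was not tested as a single value. The interaction passed for 0 probe sets in limma, with 2178 at an unadjusted p under 0.05. Ttll3 was at 8.23 in the WT sample 392, with the next WT sample at 7.43. Map4 was at 12.6 in the library labelled 433, with the next KO sample at 11.54. In all, 3 of 80 groups of samples held such a distant value, and chance gives about 1 in 20.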

How the results depend on the processing

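No member and no listed gene was called between KO and WT by limma under any of the alternatives run. The median log2 difference of the members, 0.045, was -0.105 within the smaller array series, which holds 4 samples, and ranged from 0.0321 to 0.0573 when each sample was left out in turn. With the deposited scaling alone it was -0.026. Of 311 values of single member probe sets under alternatives, 304 moved by less than the spread between samples and 7 by more, among them Tuba3b with a pseudocount of 1 (1.86) or of 4 times the one used (0.296), and Tubb3 (-0.591) and Tubb4a (-0.502) within the smaller series. The cause was not tested. Most of the alternatives left out 1 sample, which can shift a group mean by only a part of that spread. The fit without the variance trend leaves every difference as it was. The count of 304 therefore says little about how firm the values are. Tuba3b has no value with dim probe sets removed, since it lay below that limit. The count of member probe sets that passed between the array series, 3, ranged from 1 to 3 when each sample was left out and was 4 with dim probe sets removed. The brighter Tubb5 probe set passed in 21 of 21 alternatives, with 0.744 to 1.08, while the middle and dimmest Tuba4a probe sets missed the threshold in 3 and 13 of 21. These 21, like the 311 values, include the same fit under different names, the library labelled 433 left out and the KO sample 433 left out. Marks 433 and 437 pair libraries only with the CA13-marked ones. No paired analysis was possible because the marks of the KO and WT samples are not shared between genotypes.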
